A study of Mus musculus with 3 samples.

Results

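Accessible chromatin was compared between the divided and the undivided fraction of CBir1 T cells, the transferred CD4+ T cells of one specificity. Peaks of both deposited lists on chromosomes 1 to 19 were merged where they shared at least 1 bp, and this gave 52181 regions, of 57457 regions formed by all 3 fractions of the series. CBir1 T cells carry a transgenic receptor for a flagellin of gut bacteria. Naive CD4+ cells from the spleen of CBir1 transgenic mice were labelled with CellTrace Violet, whose violet signal weakens as a cell divides, and were injected into 4 C57BL/6J wild-type recipients. Recipients drank 2% dextran sulfate sodium (DSS), which injures the colon epithelium, for 7 days. They then returned to plain water, and FTY720, a drug that holds lymphocytes in lymph nodes, was given at 1 mg/kg on days 7, 10 and 13. On day 14 the nodes that drain the colon were taken, and CBir1 cells were sorted into dye-low (divided) and dye-high (undivided) cells. The recipients' own polyclonal CD4+ cells, sorted beside them, served only as a reference level. Both CBir1 fractions came from the same DSS- and FTY720-treated recipients, and no untreated library was analysed here. Cells of 2 mice went into a pool, with duplicate pools per fraction, yet each fraction has 1 peak list. Thus the differences below are between 2 libraries and have no replicate check. Intervals are 95% intervals that cover counting error only.

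ATAC-seq maps chromatin that a transposase can enter, which in T cells marks promoters and the enhancers bound by transcription factors. After antigen recognition a naive T cell divides and opens enhancers at cytokine, receptor and metabolic genes, while elements used in the resting state can close. The comparison asks which elements separate cells that had divided in the draining nodes from cells of the same receptor that had not. Each of the 12 T cell marker genes, among them Cd3e, Cd4 and Bcl11b, had a peak at a gene end in both lists. Such a peak alone does not show T cell identity. The myeloid marker Spi1 and the erythroid marker Klf1, for example, also had one in both lists.

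Promoters whose region differed between the fractions are shown as the 250 bases before the transcription start, from RefSeq (GRCm38.p6, the assembly of mm10). The 3 starts with the highest ratio among regions in both lists were those of Angptl2, a secreted angiopoietin-like protein, at chr2:33215711-33215960 (plus strand), Glt28d2, a glycosyltransferase-family gene, at chr3:85887519-85887768 (minus strand), and Il2, the T cell growth factor, at chr3:37125955-37126204 (minus strand). Itgb8, the beta chain of an integrin that activates TGF-beta, at chr12:119238277-119238526 (minus strand), and Rapgef5, an exchange factor for Rap GTPases, at chr12:117533678-117533927 (plus strand), had the strongest peaks at a start in the divided list only. Tspan9, a tetraspanin, at chr6:128035063-128035312 (minus strand), and Btc, the growth factor betacellulin, at chr5:91402995-91403244 (minus strand), had the starts with the lowest ratio. Bfsp2, a lens filament protein gene, at chr9:103449177-103449426 (minus strand), had a start in the undivided list only. Capitals mark a match to 1 of 6 motifs searched, on either strand: AP-1 (TGANTCA), CRE (TGACGTCA), ETS (CCGGAAGT), RUNX (TGTGGTTT), TCF/LEF (CTTTGAA) and FOX (TGTTTAC).
Angptl2: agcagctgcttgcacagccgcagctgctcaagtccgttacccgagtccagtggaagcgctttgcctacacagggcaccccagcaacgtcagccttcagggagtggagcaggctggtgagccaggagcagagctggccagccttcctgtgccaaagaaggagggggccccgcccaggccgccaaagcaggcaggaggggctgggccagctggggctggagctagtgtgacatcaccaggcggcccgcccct
Glt28d2: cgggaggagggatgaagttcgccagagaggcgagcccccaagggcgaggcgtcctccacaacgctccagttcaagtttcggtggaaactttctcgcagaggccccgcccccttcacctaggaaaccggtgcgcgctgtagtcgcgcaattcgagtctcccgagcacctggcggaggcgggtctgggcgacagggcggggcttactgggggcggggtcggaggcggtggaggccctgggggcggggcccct
Il2: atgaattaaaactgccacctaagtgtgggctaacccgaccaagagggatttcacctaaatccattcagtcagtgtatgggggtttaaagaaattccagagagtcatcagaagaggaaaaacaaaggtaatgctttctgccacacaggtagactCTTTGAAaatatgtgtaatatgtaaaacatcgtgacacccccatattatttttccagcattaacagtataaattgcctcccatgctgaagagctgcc
Itgb8: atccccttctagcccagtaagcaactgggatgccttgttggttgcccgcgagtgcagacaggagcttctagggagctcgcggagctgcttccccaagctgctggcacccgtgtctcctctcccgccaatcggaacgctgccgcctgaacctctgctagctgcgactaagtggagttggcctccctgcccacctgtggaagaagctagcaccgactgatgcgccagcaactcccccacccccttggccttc
Rapgef5: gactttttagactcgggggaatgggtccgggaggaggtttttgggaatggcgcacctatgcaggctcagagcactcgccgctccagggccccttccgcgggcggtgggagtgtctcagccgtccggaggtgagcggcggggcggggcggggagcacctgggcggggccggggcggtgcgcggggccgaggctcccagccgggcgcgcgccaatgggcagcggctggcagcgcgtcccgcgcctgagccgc
Tspan9: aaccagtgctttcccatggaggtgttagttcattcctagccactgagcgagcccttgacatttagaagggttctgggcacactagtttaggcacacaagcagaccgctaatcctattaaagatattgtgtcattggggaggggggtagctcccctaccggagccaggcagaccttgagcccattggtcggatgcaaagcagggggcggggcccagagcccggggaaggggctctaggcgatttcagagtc
Btc: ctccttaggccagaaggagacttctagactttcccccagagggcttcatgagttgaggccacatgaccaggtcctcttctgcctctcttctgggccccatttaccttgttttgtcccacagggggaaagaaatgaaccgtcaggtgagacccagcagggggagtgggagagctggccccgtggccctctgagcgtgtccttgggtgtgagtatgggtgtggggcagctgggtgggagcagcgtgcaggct
Bfsp2: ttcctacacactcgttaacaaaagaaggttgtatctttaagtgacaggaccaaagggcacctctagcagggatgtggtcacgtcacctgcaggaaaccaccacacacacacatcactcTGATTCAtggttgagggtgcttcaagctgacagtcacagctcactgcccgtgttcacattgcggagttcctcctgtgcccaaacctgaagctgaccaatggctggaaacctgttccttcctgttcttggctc

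In these 8 stretches the search marked CTTTGAA in Il2, beginning 97 bases before the start, and TGATTCA in Bfsp2, beginning 132 bases before it. No match in the others says only that these letters are not in the 250 bases shown. Over windows of 300 bases (250 before and 50 after the start) TGANTCA was in 7.06% of all 20085 promoters. It was in 5 of 112 promoters whose region was higher in divided cells (4.46%, interval 1.92 to 10.0). It was in 24 of 334 promoters in the divided list only (7.19%, 4.88 to 10.5), 14 of them among the 229 strong ones. Of 26 promoters higher in undivided cells 0 had it (upper limit of the interval 12.9%). In the undivided list only, 1 of 44 strong promoters (interval 0.402 to 11.8%) and 9 of 53 weaker ones (9.2 to 29.2%) had it. TGANTCA was in 3.97% of the 9695 promoters in both lists within 2-fold, and in 10.3% of the 9291 with no region. CCGGAAGT was in 5.28% of all promoters and in 9.94% of the 9695 within 2-fold. It was in 4.46% (1.92 to 10.0) of those higher in divided cells, in 2.69% (1.42 to 5.04) of those in the divided list only, in 3.02% of the 530 in both lists below the minimum pileup, and in 0.678% of the 9291 with no region. The regions away from starts were not searched, since no genome sequence was used here.

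Most of the accessible genome was shared. Of the 52181 regions, 34166 (65.5%) were in both lists, 12146 (23.3%) in the divided list only and 5869 (11.2%) in the undivided list only. The divided list therefore held 67.4% (interval 66.7 to 68.1) of the one-list regions. Regions in 1 list were narrow and low. Their median width was 277 bp in the divided and 247 bp in the undivided list, against 714 bp for regions in both, and their median summit pileup, the number of fragments stacked at the highest point, was 13 and 10 fragments. A region absent from a list was not called there, which does not mean that it held no fragments. At a −log10 q of at least 5, called strong here, 7038 regions were in the divided list only (13.5% of all regions) and 2793 in the undivided list only (5.35%). The divided share was higher among stronger regions, going from 71.6% (70.7 to 72.5) at 5 to 80.7% (77.5 to 83.5) at 20 and 86.8% (81.4 to 90.7) at 30, where 177 regions stood against 27. A given −log10 q is easier to reach in a deeper library, depth differed as given below, and these shares were not limited for depth. It lay between 63.4% and 77.4% on each of the 19 chromosomes.

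**Figure D1:**
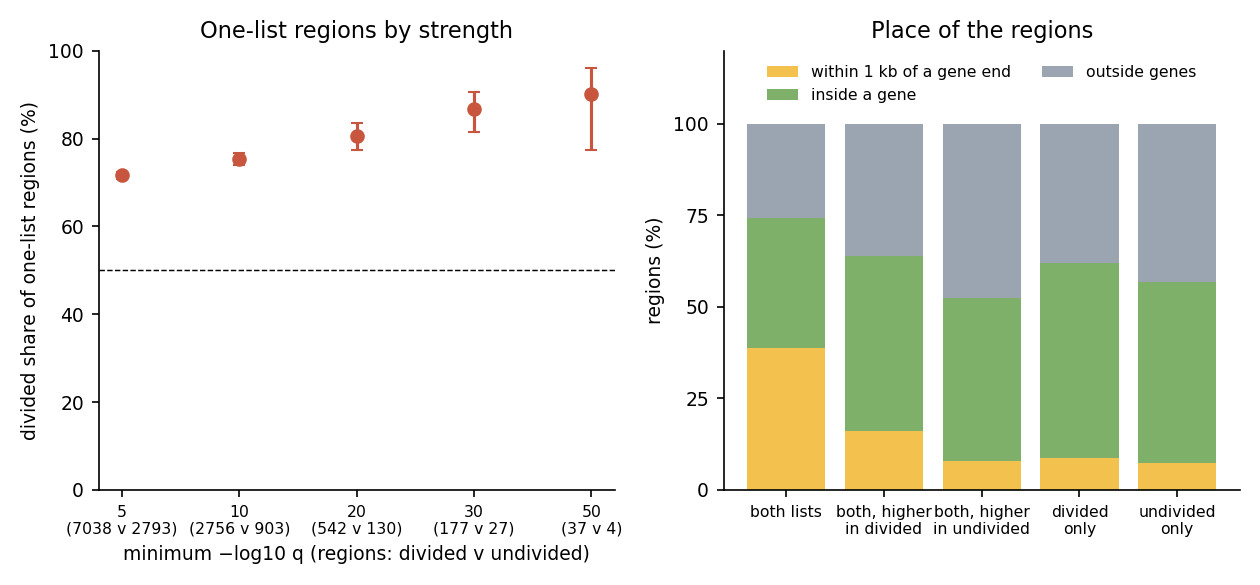
Left, share of one-list regions that belong to the divided list (y axis, percent, points, with Wilson 95% bars) at 5 minimum values of −log10 q (x axis), with region counts in brackets; the dashed line is 50%. Right, percent of regions (stacked bars) within 1 kb of a gene end, inside a gene or outside genes, for regions in both lists above a mean pileup of 20, those at least 2-fold apart, and strong one-list regions. The divided share, not limited for depth, stands above 70% at every minimum, and gene ends make up 38.8% of the first bar and 16.0% or less of the others.

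Depth differed between the libraries. The lowest local background, which follows depth if both were piled up with the same settings, was 1.21 fragments in the divided and 0.808 in the undivided library, a ratio of 1.5, and the pileup ratio over regions in both lists had a median of 1.21. After thinning the divided pileups by 1.21, 11850 of the 12146 divided-only regions still reached the lowest pileup of the undivided list at the same or a lower background. By the ratio of 1.5 it was 10980, a divided share of 65.2% with the undivided-only count kept at 5869. Shared regions that a thinned divided list would lose were not moved to the undivided side. The share at equal depth is therefore not known from this. The polyclonal list held 45.2% of the strong divided-only and 58.1% of the strong undivided-only regions, and 93.5% of the regions in both.

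One-list regions were less often at gene ends, the first or last base of a gene span, than regions in both lists. Only 8.68% (8.05 to 9.36) of the strong divided-only and 7.30% (6.4 to 8.33) of the strong undivided-only regions were within 1 kb of a gene end, against 31.6% (31.1 to 32.1) of regions in both lists. They lay inside genes in 53.2% and 49.4% of cases. The groups were not matched for height. The median divided pileup was 16 fragments in strong divided-only regions and 46 in regions in both lists. Taller regions were more often at gene ends: the share was 38.8% in regions in both lists that passed the minimum pileup. How much of the contrast follows height was not tested. Exons and introns were not told apart, since the gene table gives spans only.

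The 4 strongest divided-only regions were tall peaks at 4 separate places. The first, chr4:32126551-32127352, had a divided pileup of 117 fragments and no protein-coding gene within 100 kb. The nearest, at 103081 bp, was Map3k7, which encodes the kinase TAK1. The span of Bach2 begins at chr4:32238413, also beyond 100 kb, so the region was counted for neither gene. A region inside Mfap5, a microfibril protein gene, at chr6:122527410-122528010, had 107 fragments. One inside Bicral, a chromatin remodelling subunit gene, at chr17:46879748-46880338, had 98. The fourth, chr2:102956788-102957433, had 88 fragments and lay 55119 bp from Cd44, the adhesion receptor that marks antigen-experienced T cells. All 4 were also called in polyclonal cells, at 25 to 46 fragments. The strongest undivided-only regions were of another shape, between 152 and 298 bp wide. The tallest, chr10:96077617-96077880, was 32099 bp from Eea1, an early endosome tether, and had 362 fragments in undivided and 315 in polyclonal cells. The next, chr5:151734391-151734688, 83183 bp from Rfc3 (302 fragments), and chr8:129301061-129301212, 14492 bp from Gm32856 (132 fragments), were the last peaks of chromosomes 5 and 8 in the undivided list. The fourth, chr10:29970960-29971196, had 53 fragments and no gene within 100 kb. These last 3 were not called in polyclonal cells. The narrowest deposited peak of each list was 150 bp, so a slightly narrower peak would not be listed. Whether width set the absence of these 4 from the divided list was not tested.

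Regions in both lists were compared by summit pileup, with the divided pileup divided by 1.21 so that the median ratio was 1. Of these, 25000 had a mean rescaled pileup of at least 20 fragments, and 23530 of them (94.1%) lay within 2-fold. At least 2-fold higher in divided cells were 792 (3.17%), and at least 2-fold higher in undivided cells were 678 (2.71%). The counting interval of each of these ratios excluded 1, which follows largely from the cutoffs of 2-fold and 20 fragments and is no added support. At larger ratios there were 110 regions at least 4-fold higher in divided against 31 in undivided cells. Which fraction holds more such regions depends on the scale: scaling by background shifts every log2 ratio by −0.306 and turns the counts to 345 against 1484. The ratios of single regions and genes below are relative to the median region.

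**Figure D2:**
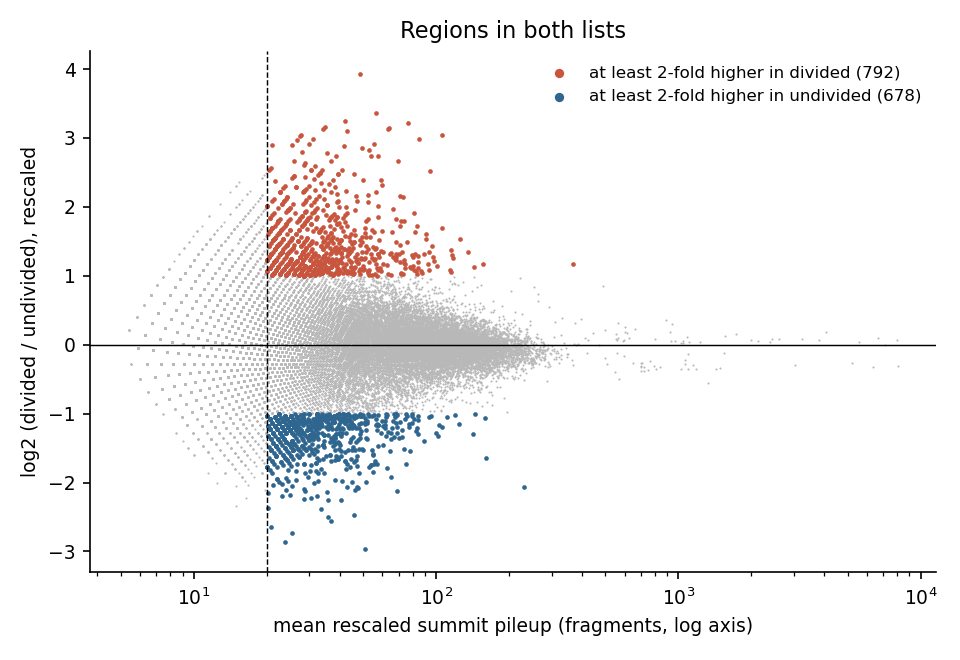
Log2 ratio of the rescaled divided to the undivided summit pileup (y axis) against the mean rescaled pileup in fragments (x axis, log scale), 1 point per region in both lists. Coloured points are the 792 regions at least 2-fold higher in divided and the 678 in undivided cells, and the dashed line is the minimum of 20 fragments. The coloured points lie mostly below 100 fragments, and those above 500 are all within 2-fold.

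The 5 ratios furthest toward divided cells were led by the Il17a locus. Il17a encodes the signature cytokine of Th17 cells. A region 9371 bp from the gene, at chr1:20743867-20744299, had a pileup of 110 fragments in divided, 64 in polyclonal and 6 in undivided cells. After rescaling it was 15.1-fold higher in divided cells (6.74 to 42.2), and the polyclonal library lay between. The other 4 regions were inside genes. In Slc6a19, an amino acid transporter gene, the pileups were 125 and 10 (10.3-fold, 5.43 to 22.1). In Rtkn2 they were 92 and 8 (9.50-fold, 4.62 to 22.7). In Stx6, a syntaxin of the trans-Golgi network, they were 168 and 15 (9.25-fold, 5.45 to 16.9). In N4bp1, an RNase that restrains NF-kB signalling, they were 76 and 7 (8.97-fold, 4.15 to 23.1). The intervals of all 5 overlap, so their order is not resolved.

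N4bp1 also headed the opposite end. A region 43053 bp outside the same gene, at chr8:86797753-86798083, had 14 fragments in divided, 84 in polyclonal and 90 in undivided cells, and was 7.78-fold higher in undivided cells (4.41 to 14.8). Each extreme thus had a region assigned to N4bp1, the second by distance alone. Inside Ulk4 the pileups were 7 in divided and 42 in undivided cells (7.26-fold, 3.23 to 19.2), and inside Arhgap5 they were 8 and 44 (6.66-fold, 3.10 to 16.4). A region 96847 bp from Gm52008 had 7 and 36 (6.23-fold, 2.73 to 16.6). Inside Dock9, an exchange factor for Cdc42, they were 13 and 63 (5.87-fold, 3.20 to 11.6). The intervals of these low ratios also overlap, so their order is not resolved either.

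The polyclonal library was intermediate at most regions that differed. At regions higher in divided cells the median rescaled pileup was 48.0 in divided, 28.0 in polyclonal and 17.2 in undivided cells, and the polyclonal value lay between the other two in 88.8% of the 775 called there. At regions higher in undivided cells the medians were 17.7, 34.0 and 44.6, with 86.1% between. In 38.3% of the first and 29.1% of the second the polyclonal value was nearer the divided one. A value between is partly fixed by choosing regions where the other libraries lie apart.

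Gene ends were the steadiest places. Of 9710 such regions in both lists above the minimum, 127 (1.31%) were at least 2-fold higher in divided and 54 (0.556%) in undivided cells. Inside genes it was 4.28% and 3.40%, and outside genes 4.44% and 5.01%. Gene-end regions were taller, with a median undivided pileup of 79 against 43 inside and 42 outside genes, and taller regions vary less by counting. At annotated transcription starts alone, 96 of 8287 (1.16%) were higher in divided and 32 (0.386%) in undivided cells. Under background scaling the gene-end counts turn to 50 and 134.

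At gene ends the highest ratios belonged to Bmp2k, a kinase of the NAK family, with pileups of 57 in divided and 6 in undivided cells (7.85-fold, 3.39 to 22.3), and Pcyox1l, with 118 and 13 (7.5-fold, 4.22 to 14.5). Angptl2 followed with 75 and 9 (6.88-fold, 3.44 to 15.6), at the start whose sequence is shown above, and then Dcun1d5, a cullin neddylation factor, with 77 and 10 (6.36-fold, 3.28 to 13.8). At starts, Glt28d2 had 59 and 8 (6.09-fold, 2.90 to 14.8). The Il2 start had 53 fragments in divided, 12 in polyclonal and 9 in undivided cells, 4.86-fold higher in divided than undivided cells (2.38 to 11.2), so the polyclonal level was near the undivided one. The divided-only starts of Itgb8 and Rapgef5 had 42 and 39 fragments, against 27 and 11 in polyclonal cells.

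The lowest ratios at gene ends were smaller. Qpct, glutaminyl cyclase, had 16 in divided and 58 in undivided cells (4.39-fold, 2.49 to 8.18), N4bp3 had 13 and 38 (3.54-fold, 1.84 to 7.24), Ptp4a3, a tyrosine phosphatase, 24 and 66 (3.33-fold, 2.06 to 5.56) and Btc 24 and 64 (3.23-fold, 1.99 to 5.40). The Tspan9 start shown above had 12 in divided, 37 in polyclonal and 38 in undivided cells (3.83-fold, 1.96 to 8.06). It is a start inside the gene: the region at the first base of the gene's span had 18 and 12 fragments and did not reach the minimum. Chosen after its values were seen, the start of Prf1, which encodes the pore protein of cytotoxic granules, had 44 in divided, 50 in polyclonal and 94 in undivided cells (2.59-fold, 1.79 to 3.79). The undivided-only start of Bfsp2 had 27 fragments and 12 in polyclonal cells.

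Genes were ranked over the whole genome by a net count: regions higher in divided cells (strong and in the divided list only, or in both lists and at least 2-fold higher) minus regions higher in undivided cells. Of 14233 protein-coding genes with a region within 100 kb, 3983 (28.0%) had a net toward divided and 1421 (9.98%) toward undivided cells. A net of at least 5 was reached by 117 genes toward divided and 16 toward undivided cells. Regions of both kinds occurred at 1027 genes, 45.6% of the 2251 with a region higher in undivided and 22.1% of the 4652 with one higher in divided cells. A count of regions is not corrected for gene length, given below for some genes.

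Transcriptional regulators were among the 8 genes with the highest net. Trerf1, a zinc-finger cofactor gene of 221 kb, had 13 regions higher in divided and 0 higher in undivided cells, and 65.0% of its 20 regions were of this kind. Its gene-end region was level, with 137 fragments in divided and 108 in undivided cells (log2 0.07). Inside it, 12 strong regions of 11 to 37 fragments were in the divided list only, 4 of them called in polyclonal cells, and a region in both lists at chr17:47170809-47171549 had 92 fragments against 18 (4.22-fold). Etv6, an ETS-family repressor, showed the same arrangement with 12 regions and 0, a gene end at 133 and 98 (log2 0.16), and 10 strong divided-only regions of 10 to 40 fragments. Rora, a nuclear receptor of Th17 and tissue T cells, had 10 and 0, all 10 of them in the divided list only and inside the gene.

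Ifng, the Th1 cytokine interferon-gamma, reached 10 and 0 although its span is 4.85 kb. The region 21386 bp before the gene was level, with 159 fragments in divided and 134 in undivided cells. At the gene itself 3 strong regions of 13 to 17 fragments, the start included, were in the divided list only and were not called in polyclonal cells. Beyond the gene, a region 14323 bp away had 43 fragments in divided, 20 in polyclonal and 6 in undivided cells (5.92-fold), next to a divided-only region of 36 at 12865 bp. Of the 9 strong divided-only regions, 1 was called in polyclonal cells. The net of Ifng was 5 when regions within 20 kb alone were counted and 3 within the gene span.

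Fyn, a Src-family kinase of T cell receptor signalling, had 13 regions higher in divided and 2 in undivided cells. The region over its start was level (235 and 185 fragments, log2 0.07), but a strong divided-only region of 61 fragments lay 733 bp before the gene. Inside the gene, a region at chr10:39478965-39479969 had 112 and 20 (4.63-fold, 2.86 to 7.86). Stk39, the kinase SPAK that regulates chloride cotransporters, had 10 and 0. A region in both lists at chr2:68296611-68297329 had 45 fragments in divided, 17 in polyclonal and 9 in undivided cells (4.13-fold, 1.99 to 9.61), and the divided-only region with the highest −log10 q (15.6), chr2:68301894-68302268, had 32 fragments in divided and 18 in polyclonal cells. Rad51b, a recombination repair gene of 551 kb, had 15 and 1. Wwox, a very long gene of 913 kb at a fragile site, had the highest net with 21 and 6 among 60 regions. Most of those higher in undivided cells lay at lower coordinates, such as chr8:114869190-114869710 (13 fragments in divided and 33 in undivided cells). Most of those higher in divided cells lay at higher coordinates, such as the divided-only chr8:115136644-115137273 (65 fragments), and some lay beyond the gene. The gene end of Wwox did not differ (124 and 128 fragments), and the median log2 ratio of its shared regions was −0.29. The net of Wwox fell to 9 under background scaling with the depth limit. When one-list regions needed a −log10 q of 10, the nets were 8 at Rad51b, 7 at Trerf1 and Fyn, 6 at Ifng, 5 at Etv6, and 4 at Stk39 and Rora.

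**Figure D3:**
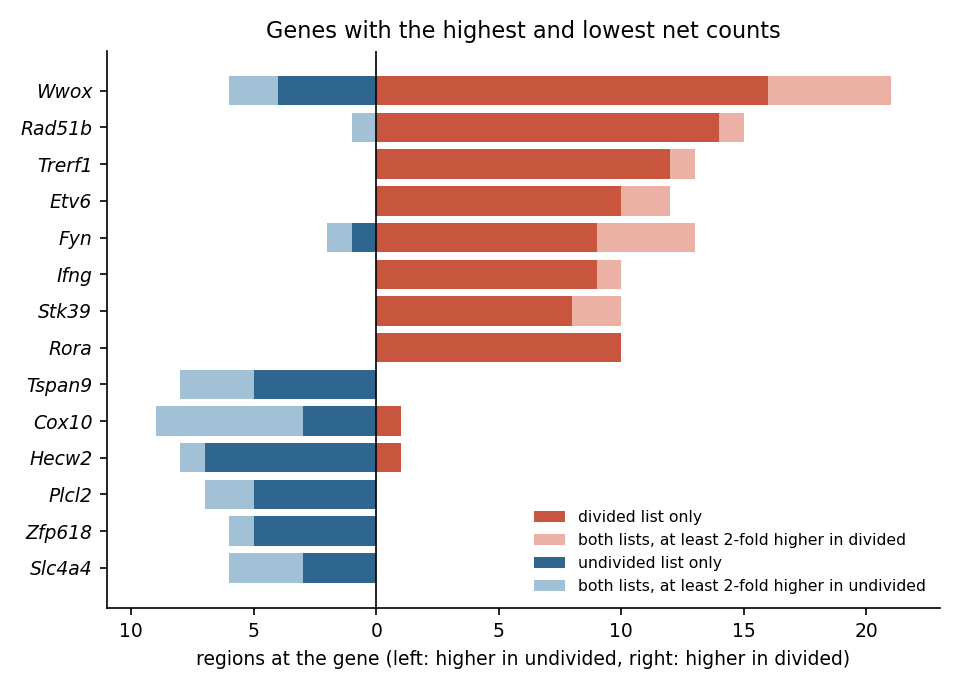
Number of regions (x axis) higher in divided (right) and in undivided cells (left) at the 8 genes with the highest and the 6 with the lowest net count (y axis). Dark bars are strong regions in 1 list and pale bars regions in both lists at least 2-fold apart. Bars of Trerf1, Etv6, Ifng, Stk39 and Rora have no left side, and those of Tspan9, Plcl2, Zfp618 and Slc4a4 no right side.

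At the other end of the ranking the counts were lower. Tspan9 had 0 regions higher in divided and 8 in undivided cells, 72.7% of its 11 regions. Inside it, a region at chr6:127991526-127992359 had 22 fragments in divided, 51 in polyclonal and 72 in undivided cells (3.96-fold), and one at chr6:128025572-128026027 had 15, 46 and 59 (4.76-fold). Polyclonal cells were thus closer to undivided cells at both. Cox10, which farnesylates heme for cytochrome oxidase, had 1 and 9. Its gene end was level at 155 and 116 fragments (log2 0.14), and the 6 shared regions that differed did so by 2.07- to 3.85-fold. Hecw2, a HECT ubiquitin ligase, had 1 and 8, with 7 undivided-only regions of 10 to 21 fragments inside the gene, 5 of them also in polyclonal cells.

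Plcl2, a phospholipase C-like protein that dampens antigen receptor signalling in B cells, had 0 and 7. Its gene-end region had 72 and 78 fragments (log2 −0.39), and 2 shared regions 24729 and 23259 bp outside the gene had 29 and 52, and 39 and 65. Zfp618, a zinc-finger gene, had 0 and 6. Slc4a4, a bicarbonate cotransporter gene, also had 0 and 6, with 3 shared regions inside the gene 2.33- to 3.15-fold higher in undivided cells. The strong undivided-only regions lay inside the gene at Tspan9 (5 of 5), Cox10 (3 of 3), Hecw2 (7 of 7), Slc4a4 (3 of 3) and Zfp618 (4 of 5), and less so at Plcl2 (2 of 5). With a −log10 q of 10 required of one-list regions the nets were −5 at Tspan9, −3 at Zfp618 and −2 at Hecw2, and within 20 kb they were −5 at Cox10 and −4 at Plcl2.

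**Figure D4:**
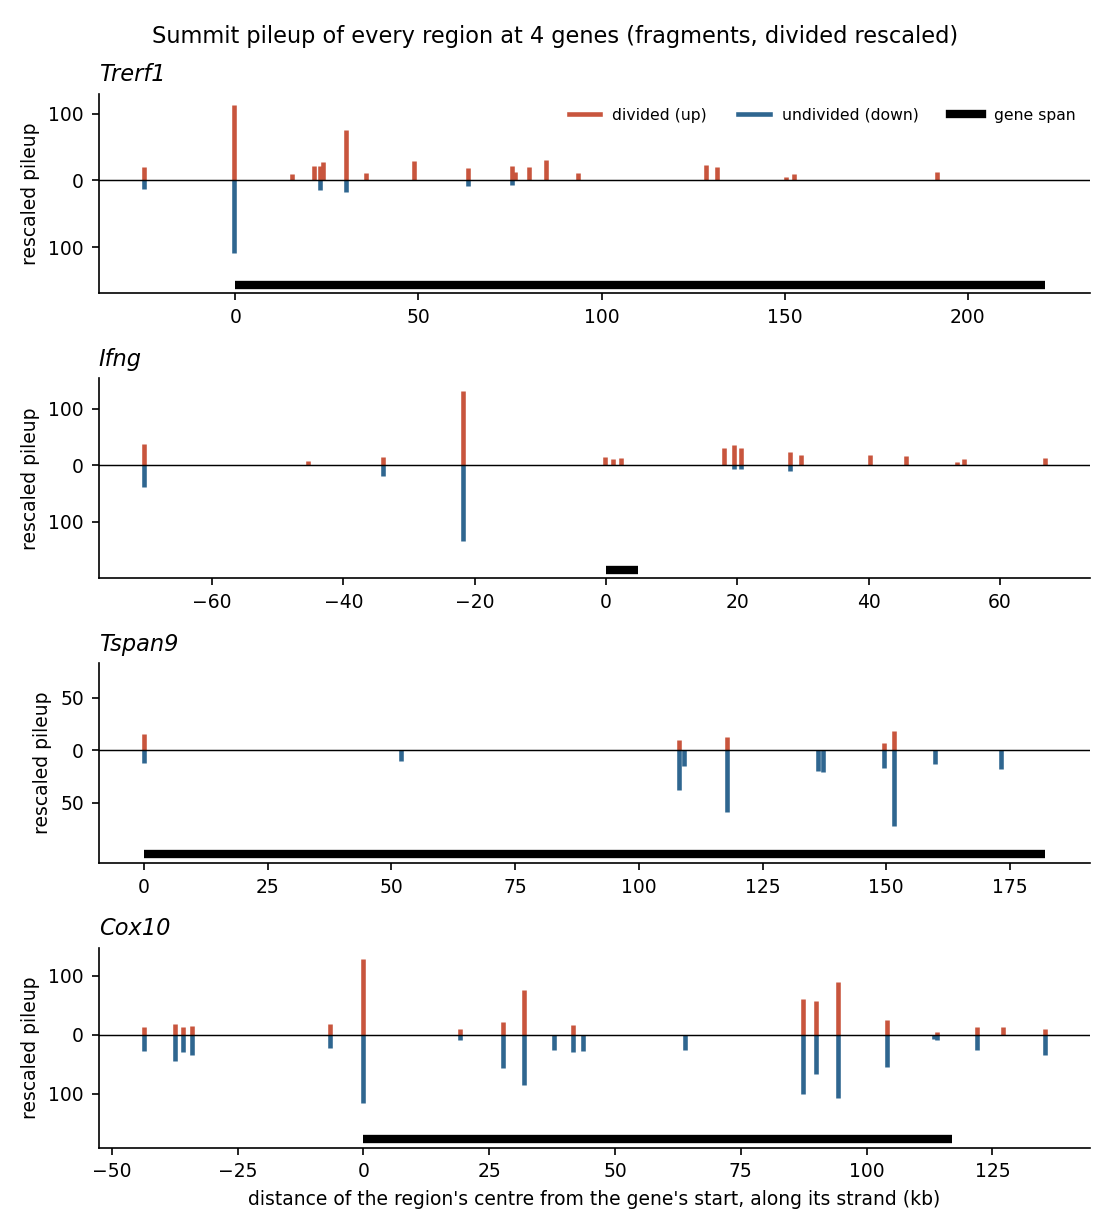
Summit pileup (y axis, fragments; divided upward after rescaling, undivided downward) of every region assigned to Trerf1, Ifng, Tspan9 and Cox10, at the distance of its centre from the gene's start along its strand (x axis, kb); black bars are the gene spans. At Trerf1, Ifng and Cox10 the tallest region has bars of similar height on both sides, and regions with a bar on 1 side lie apart from it.

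At some genes most shared regions differed in one direction. Among the 1006 genes with at least 5 shared regions above the minimum, the median log2 ratio per gene had quartiles of −0.15 and 0.15, and 23 genes reached 0.5 while 38 reached −0.5. The highest medians were those of Akap11, an anchor of protein kinase A (1.02), Hk2, the hexokinase that traps glucose for glycolysis (0.95), Cdk6, a kinase that drives entry into the cell cycle (0.94), and Abcc4, an exporter of cyclic nucleotides and drugs (0.85). At Hk2 the gene-end region had 113 fragments in divided, 43 in polyclonal and 37 in undivided cells (2.52-fold), and the next region, 759 bp outside the gene, had 63 and 27 (1.93-fold). Hk2 was thus unlike Trerf1 or Etv6, whose gene ends were level. At Cdk6 the start was close to level (156 and 107, log2 0.27), and 3 regions inside the gene had 84 and 29, 77 and 14, and 45 and 13 fragments. Apart from its gene end (107 and 92 fragments), the regions of Akap11 lay 9122 to 59879 bp outside it, and its net of 5 became 0 within the gene span, so their assignment to Akap11 rests on distance.

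The lowest medians were those of Alox5ap, the activating protein of leukotriene synthesis (−1.17), Chl1, a neural adhesion molecule (−1.13), P4ha2, a collagen prolyl hydroxylase (−1.09), and Slc4a4 (−1.0). At Alox5ap a gene-end region had 13 fragments in divided and 31 in undivided cells (2.89-fold) and a region 32410 bp away 43 and 80 (2.25-fold). At Chl1 the start had 16 and 41 (3.10-fold), and a region inside the gene 13 and 46 (4.28-fold). The 4 regions higher in undivided cells assigned to P4ha2 had 18 to 39 fragments in divided and 38 to 88 in undivided cells, with 3 of them outside the gene. P4ha2 also had 3 strong divided-only regions, and its net was −2 (−4 under background scaling with the depth limit).

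Shared regions were more often higher in a fraction at genes with more regions in that fraction's list only. Of 13436 shared regions at genes with no strong divided-only region, 1.93% were at least 2-fold higher in divided cells. With 2 such neighbours it was 4.81% of 2348, and with 5 or more 9.07% of 882. The share higher in undivided cells was 2.3% with none, 3.47% with 3 and 2.15% with 5 or more. The mirror held for undivided-only neighbours: from 1.77% of 17992 shared regions with none to 7.43% of 861 with 3 or more, while the share higher in divided cells lay between 2.67% and 3.37%. Still, 259 shared regions higher in divided cells lay at genes with no strong divided-only region, and 318 higher in undivided cells at genes with no strong undivided-only region. These are counts over regions of 2 libraries and carry no test.

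**Figure D5:**
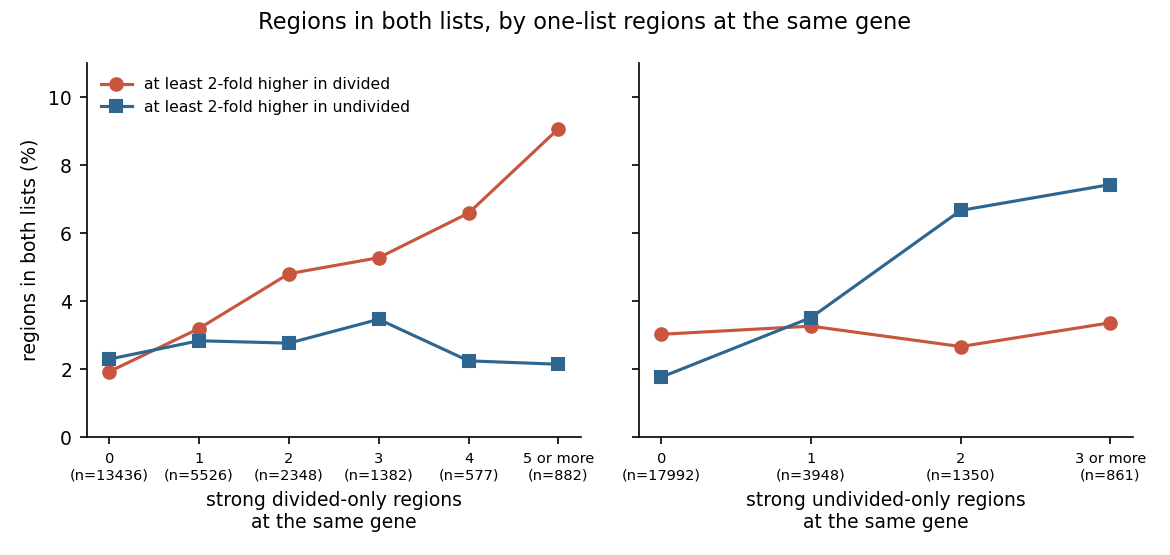
Percent of regions in both lists (y axis) at least 2-fold higher in divided or in undivided cells, by the number of strong divided-only (left) or undivided-only (right) regions at the same gene (x axis, number of shared regions in brackets). The line of the matching fraction climbs to 9.07% on the left and 7.43% on the right, while the other line stays between 2.15% and 3.47% on the left and between 2.67% and 3.37% on the right.

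Known T cell gene groups were then placed in this ranking. The groups were chosen with earlier results of these data known. Over all genes the background was 28.0% of genes with a net toward divided and 70.1% of differing regions higher in divided cells (7390 against 3159). Of the 14233 genes behind the 28.0%, 8357 had no differing region. Genes with more regions have more chances of a net, and the 28.0% is not matched for this. The 12 T cell marker genes, for comparison, had 6 with a net toward divided and 1 toward undivided cells (24 regions against 9, 72.7%). Of 11 Th17 genes with a region, 8 had a net toward divided and 0 toward undivided cells, with 29 regions against 3 and a median log2 ratio of 0.30 over 28 shared regions, against 0.00 over all genes. Rora had the highest net. Of 10 Tfh genes, those of T cells that help B cells, 7 and 0 had a net, with 33 regions against 7, led by the costimulatory receptor Icos with 10 against 1. Of 10 regulatory T cell genes 5 and 1 had one, with 25 regions against 8 (75.8%, against the 70.1% of all genes), led by the suppressive cytokine Il10. Listed genes outside chromosomes 1 to 19, Foxp3 among them, were not counted in any group. Il10 had 7 regions higher in divided cells and 0 in undivided cells, among them one at chr1:130993543-130994267 with 182 fragments in divided, 71 in polyclonal and 19 in undivided cells (7.91-fold). Of 13 Th1 genes 6 and 2 had a net (22 regions against 8, 73.3% and so near the 70.1% of all genes), from Ifng to Eomes at −1, and of 10 Th2 genes 5 and 1 (6 regions against 1).

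Among 17 activation and effector regulators 10 had a net toward divided and 0 toward undivided cells, with 26 regions against 5, led by Cd44 with 5 and 0. Among 13 genes of inhibitory receptors and anergy it was 9 and 1 (20 regions against 2), led by Btla with 4 and 0, and among 7 cytotoxic genes 4 and 0 (8 against 2). Genes of the naive and quiescent state went both ways. Of 18 such genes 9 had a net toward divided and 4 toward undivided cells, with 47 regions against 30 (61.0% higher in divided cells, below the 70.1% of all genes) and a median log2 ratio of −0.11. Ets1 had the highest net (5 and 0) and Satb1, a chromatin organiser, the lowest (0 and 2). Under background scaling with the depth limit this group turned to 43 against 51 regions (45.7% higher in divided cells), where all genes had 6974 against 3906 (64.1%). Of 12 migration genes 5 had a net toward divided and 2 toward undivided cells (11 regions against 6, and 11 against 11 under that scaling), with Gpr15, a colon-homing receptor, at 3 and 0, and Cxcr4, a receptor that holds cells in lymphoid tissue, at 0 and 3. Under that scaling the share higher in divided cells was 87.1% in the Th17 group (27 against 4), 76.9% in the Tfh group (30 against 9), 76.7% among activation genes (23 against 7) and 85.0% among inhibitory genes (17 against 3). The regulatory T cell group was at 71.0% (22 against 9). The Th1 group, at 66.7% (20 against 10), was near the 64.1% of all genes. The Th17 median log2 ratio then was 0.00, against −0.31 over all genes.

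Markers of other cells also differed and are given beside these groups. Of 10 B cell genes 6 had a region, and of these 4 had a net toward divided and 0 toward undivided cells (9 regions against 1). The B cell counts thus leaned toward divided cells about as far as those of the Th17 group (29 against 3), though from fewer regions. The summed pileup of the B cell genes was 211.5 rescaled fragments in divided and 56 in undivided cells, against 6124 and 5339 for the T cell markers. Cd79b and Ms4a1 had no region in either library, Cd79a had only a gene-end region assigned to a neighbouring gene (80.1 and 95 fragments), and Pax5, Blnk and Cd22 had regions in divided cells only. The 2 CD8 genes had 0 regions higher in divided and 2 in undivided cells, at 27.3 and 89 summed fragments. The 8 myeloid genes, 6 of them with an assigned region, had 7 regions against 1 and summed pileups of 543.6 and 541. The 7 stromal and endothelial genes had 6 against 2 and 522.9 and 517. Dendritic and epithelial genes each had 2 against 2, and NK and innate lymphoid genes 0 against 1. Their part in the differences above was not tested.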

How the data were processed

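ATAC-seq peak lists of divided and undivided CBir1 T cells were compared, with the polyclonal list as a reference. Per the submitters' processing notes, the tools were MACS2 2.1.0, Bowtie2 2.3.2, Trimmomatic 0.33, cutadapt 1.12, SAMtools, Picard and bcl2fastq 2.17, and the build was mm10. The sources used here do not say whether reads were shifted for the transposase, or how the duplicate pools entered each list. The authors' deposited lists give a score per peak, a linear ratio of pileup to local background (fold), and −log10 p- and q-values (lowest −log10 q 1.30 to 1.31), each belonging to a peak within its own list.

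No source used here gives read totals. The deposited fold equals summit pileup + 1 over background + 1, so solving it together with the −log10 p of a Poisson model gave both values, and the pileup was whole within 0.001 for at least 99.993% of peaks. The procedure was tested on simulated data. Analyses used Python 3.11.15, numpy 2.4.6, pandas 2.3.3 and scipy 1.17.1. Each region went to the nearest of 20665 RefSeq protein-coding gene spans (GRCm38.p6) within 100 kb, which left 2633 regions without a gene. Transcription starts were known for 79.6% of these genes. Shares have Wilson intervals, and pileup ratios exact conditional binomial intervals. No test between fractions was made, since each is 1 library.

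Named were the 8 genes with the highest and the 6 with the lowest net count, the 4 highest and 4 lowest medians, the 5 highest and 5 lowest shared ratios, the 4 strongest one-list regions in each direction, the 4 highest and 4 lowest gene-end ratios, and the extreme members of each list; starts, promoters and other genes named were chosen after their values were seen. The regions compared and the gene lists were chosen with earlier results of these data known.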

Additional observations from a re-analysis of the deposited data

How the results depend on the processing

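The divided share of one-list regions was 66.3% when sharing required an overlap of 0.5 of the shorter peak, 75.3% among regions with a −log10 q from 10 upward and 71.6% from 5 upward. It was 66.9% with divided-only regions limited to those within reach at the depth ratio of shared regions and 65.2% at that of the background. In a stricter reading added after seeing the data (same or a higher background) it was 64.5% and 63.7%. These 4 shares left the undivided-only count unchanged, so they do not give the share at equal depth.

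Counts of regions in both lists higher in divided and in undivided cells were 345 and 1484 scaled by background, 1455 and 1198 with no minimum pileup, 224 and 192 at a minimum of 40, and 2251 and 2185 at a fold of 1.5; rescaling at gene ends, single summits and subtracting the background kept both counts within 1.5 times. At gene ends they were 50 and 134 scaled by background (added after seeing the data). Within 1 kb of a transcription start 32 regions, and within 200 bp of a gene end 33, were higher in undivided cells.

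Genes with a net toward divided and undivided cells numbered 2233 and 856 when one-list regions needed a −log10 q of 10, and 922 had a net toward undivided cells in gene spans only. For the 21 genes ranked above, 104 of 105 net counts under alternatives kept their sign and 1 was 0 (Akap11, gene span only). These genes were picked for extreme values in the same data, and many had 0 regions on the other side. Where an alternative only drops regions, the sign of such genes cannot change, so this is not an independent check. Of the 8 highest genes 5 to 7 stayed among the 8 highest, and of the 6 lowest 3 to 5.

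No paired analysis was possible because each fraction is 1 library. The background ratio and the median ratio give unlike scales, and which is nearer to true depth was not tested. Regions with pileups near 10 fragments can miss a list by counting error alone.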

Other observations

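Regions far from genes made up a small part of the map. Of 2633 regions without a protein-coding gene within 100 kb, 440 (16.7%) were higher in divided and 312 (11.8%) in undivided cells, against 15% and 6.65% of all regions. The examples that follow were chosen after their values were seen. Neighbouring regions at chr17:13551796-13553143 and chr17:13550690-13551675, about which the nearest gene was Tcte2, had 262 and 195 fragments in divided, 146 and 67 in polyclonal, and 96 and 50 in undivided cells (2.25-fold, 1.78 to 2.88, and 3.22-fold, 2.35 to 4.49). A region at chr12:25305751-25306632, 209659 bp from Id2, an inhibitor of E proteins, had 124 in divided, 45 in polyclonal and 45 in undivided cells (2.28-fold, 1.61 to 3.28). On the undivided side, chr3:38280122-38280713, 168546 bp from Ankrd50, had 100 in divided, 133 in polyclonal and 202 in undivided cells (2.45-fold, 1.91 to 3.14).

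Further genes, also chosen after their values were seen, included Maf, a transcription factor of Tfh and IL-10-producing cells. Its gene-end region had 175 fragments in divided and 121 in undivided cells (log2 0.26), and 4 strong regions of 38 to 79 fragments, 19668 to 64038 bp outside the gene, were in the divided list only. Hif1a, a regulator of glycolysis, had 7 regions higher in divided and 0 in undivided cells, among them one 12636 bp outside the gene with 68 and 16 fragments (3.51-fold). Ifngr1, which encodes a chain of the interferon-gamma receptor, had 0 and 5, while its start was level at 179 and 156 fragments (log2 −0.08). Of its 3 strong undivided-only regions 0 lay inside the gene, so their assignment to Ifngr1 rests on distance. The net counts of Ifng and Ifngr1 had opposite signs, and a link between the 2 genes was not tested. Bach2, a repressor that maintains quiescence, had 10 and 8 among 57 regions. The strong divided-only region at chr4:32126551-32127352 lay beyond 100 kb from Bach2 and was not among them.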
